A study of Mus musculus with 2 samples.

Results

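Genes of the cell division cycle were examined in intestinal stem cells without and with circPan3, a circular RNA produced from the Pan3 gene. The 53 genes were a set list of genes of mitosis, genes of DNA replication and the G1/S transition, and inhibitors of cyclin-dependent kinases (CDKs), each taken from the array row that the platform annotation gives to that gene alone. Of the 53, 51 were measured, among 19229 named protein-coding genes on the array. They comprised 24 mitosis genes, 24 replication genes and 3 inhibitors, and none had more than 1 row. The cyclin gene Ccnb1 is not named in the annotation table used here, and the row of Mcm7 is shared with microRNA genes and was not used.

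The samples were circPan3-/-;Lgr5GFP-CreERT2 and circPan3+/+;Lgr5GFP-CreERT2 cells, so both genotypes carried the Lgr5 reporter, in which a fluorescent protein tags cells with an active Lgr5 gene, which encodes a receptor of crypt base stem cells. GFP-positive cells were sorted by flow cytometry from the small intestine of 8-week-old mice, and total RNA was hybridised to a mouse Clariom D array (Affymetrix), whose probes read messenger and noncoding RNA. Each genotype had 1 array, and the number of mice behind each sample is not stated in the labels. Without replicates, the differences below carry neither an error nor a p-value, and they compare 2 arrays.

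A dividing cell copies its DNA in S phase and separates the copies in mitosis. Before S phase, the MCM helicase is loaded onto origins by Cdc6 and Cdt1, and transcription factors of the E2F family switch on the genes of DNA synthesis. In G2 phase and mitosis, cyclins A and B with Cdk1, the Aurora and Polo kinases and the anaphase-promoting complex take over, and their genes are repressed outside this window by the DREAM complex, which binds a short promoter element called the cell cycle genes homology region (CHR). CDK inhibitors such as p21, the product of Cdkn1a, hold the cycle back. Lgr5-positive crypt base cells divide often, unlike their differentiated descendants in the villus.

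These promoter elements are shown first, because they are a feature of the genes that does not depend on the arrays and that differs in frequency between the 2 groups. Promoter windows of 300 bases, 250 before and 50 after the most upstream start of each gene, were taken from RefSeq (GRCm38.p6), and 43 of the 51 measured genes had an entry. The windows were searched on both strands for the CHR words TTTGAA and TTTAAA, for the word CCAAT that NF-Y binds, and for E2F words. These were TTCCCGC together with its variants in the middle bases, which are TTGGCGC, then also the word TTCGCGC and finally the word TTGCCGC, and they can overlap each other. Printed here are the 250 bases before the start for 3 mitosis genes, for 3 replication genes, and for Cdkn1a as a gene of the opposite role. The 3 of each group had the largest differences among genes above the control limits defined below that have an entry and hold a motif. Mcm4 had no entry and was not searched. Capitals mark the motifs.
Ccnb2, chr9:70421555-70421804 (-): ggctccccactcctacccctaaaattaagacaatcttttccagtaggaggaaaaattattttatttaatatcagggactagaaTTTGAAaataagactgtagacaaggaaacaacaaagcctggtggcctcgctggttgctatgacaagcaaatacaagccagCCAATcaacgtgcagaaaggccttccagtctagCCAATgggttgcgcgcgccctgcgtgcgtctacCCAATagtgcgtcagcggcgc
Mki67, chr7:135716380-135716629 (-): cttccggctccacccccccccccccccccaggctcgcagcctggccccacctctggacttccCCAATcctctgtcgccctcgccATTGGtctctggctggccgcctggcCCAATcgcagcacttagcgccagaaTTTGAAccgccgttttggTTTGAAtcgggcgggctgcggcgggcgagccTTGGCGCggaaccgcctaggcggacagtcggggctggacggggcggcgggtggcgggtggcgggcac
Top2a, chr11:99024190-99024439 (-): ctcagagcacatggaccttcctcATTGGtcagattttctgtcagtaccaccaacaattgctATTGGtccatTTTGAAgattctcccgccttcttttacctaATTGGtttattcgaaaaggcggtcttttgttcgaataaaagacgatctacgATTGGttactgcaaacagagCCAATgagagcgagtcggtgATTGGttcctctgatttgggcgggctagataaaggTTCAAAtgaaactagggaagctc
Mcm6, chr1:128359706-128359955 (-): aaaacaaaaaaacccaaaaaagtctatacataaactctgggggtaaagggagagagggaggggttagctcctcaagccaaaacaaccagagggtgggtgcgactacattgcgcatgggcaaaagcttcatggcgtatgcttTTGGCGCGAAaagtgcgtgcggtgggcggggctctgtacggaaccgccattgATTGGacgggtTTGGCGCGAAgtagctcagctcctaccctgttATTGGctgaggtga
Mcm2, chr6:88898781-88899030 (-): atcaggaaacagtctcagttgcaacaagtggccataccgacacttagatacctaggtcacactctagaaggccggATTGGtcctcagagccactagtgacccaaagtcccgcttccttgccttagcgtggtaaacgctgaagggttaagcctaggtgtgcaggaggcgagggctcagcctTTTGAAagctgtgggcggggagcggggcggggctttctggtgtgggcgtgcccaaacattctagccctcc
Rrm1, chr7:102441445-102441694 (+): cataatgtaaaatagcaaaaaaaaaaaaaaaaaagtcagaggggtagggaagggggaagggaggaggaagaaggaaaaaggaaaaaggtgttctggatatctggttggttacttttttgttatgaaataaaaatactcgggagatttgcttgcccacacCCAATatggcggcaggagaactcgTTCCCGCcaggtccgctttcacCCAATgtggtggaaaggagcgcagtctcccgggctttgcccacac
Cdkn1a, chr17:29090729-29090978 (+): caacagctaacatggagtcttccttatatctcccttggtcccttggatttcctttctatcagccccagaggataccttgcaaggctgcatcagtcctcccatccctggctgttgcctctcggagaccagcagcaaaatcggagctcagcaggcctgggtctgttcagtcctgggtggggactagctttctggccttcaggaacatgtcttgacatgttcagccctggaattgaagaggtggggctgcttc

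The Ccnb2, Mki67 and Top2a windows each hold several CCAAT words, read as ATTGG on the other strand, and the CHR word TTTGAA, read as TTCAAA on the other strand. Ccnb2 has a further CHR word 5 bases into the transcript, which is not printed. The Mcm6 window holds overlapping pairs of E2F words that run on both strands (the runs of 10 capitals), and Rrm1 holds a single E2F word. Mcm2 has a CHR word but no E2F word, and the Cdkn1a window has no searched motif. Cdkn1a has 2 listed starts, however, and only the window of the upstream one was searched. The lack of motifs therefore holds for that window and not for every promoter of the gene.

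Over the mitosis genes, 17 of 20 promoters (85.0%) held a CHR word, against 25.5% of 17491 promoters of protein-coding genes and 19.4% of those of the named genes that passed the filter on low signal. The word lay within 50 bases of the start in 15 of the 20, against 6.85% of all promoters. CCAAT stood in 17 of the 20 (85.0%), against 39.2% of all promoters, and 16 held both. E2F words stood in 3 of the 20 (15.0%), against 12.2% of all promoters. In the replication genes, E2F words stood in 11 of 20 promoters (55.0%), CHR words in 7 (35.0%) and CCAAT in 13 (65.0%). E2F words were thus more frequent and CHR words less frequent than in mitosis promoters, while CCAAT was above the share of all promoters in both groups. A match is only a string of letters in the window and does not show that a factor binds there.

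**Figure D1:**
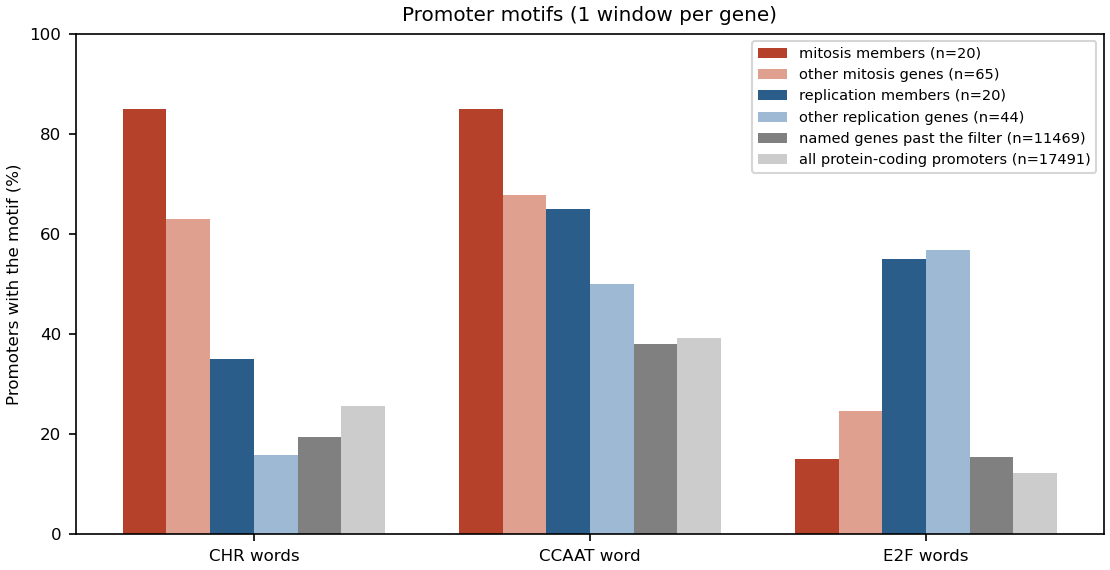
Share of promoters (%) that hold a CHR, CCAAT or E2F word, with 1 window of 300 bases per gene, for the mitosis and replication genes, for other genes of both processes, and for 2 backgrounds. CHR words stand in 85.0% of mitosis promoters and E2F words in 55.0% of replication promoters, against 25.5% and 12.2% of all promoters.

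Signals are the deposited RMA values on a log2 scale, and differences are circPan3-/- minus circPan3+/+. Named genes as a whole read higher on the circPan3-/- array. Over the 14205 named genes with a mean signal no lower than the median row (2.53), the median difference was 0.35, and it was larger in bright genes, at 0.55 in the eighth with the brightest signals against 0.19 in the dimmest one. The centred difference given below is the difference minus 0.35. As a control limit, the 95th percentile of the negative control rows was taken, which was 5.56 for circPan3-/- and 5.06 for circPan3+/+ cells. Of the 51 genes, all passed the filter, 19 were above the limit on both arrays, 4 on one array only, and 28 on neither. A value under its limit cannot be told from the negative controls, so differences between such values are given as measured and have no readable order. Values that recur in some other row made up 4.20% of rows for circPan3-/- cells, against 69.1% of rows for circPan3+/+ cells. Whether both arrays were processed alike is not stated in the labels, and this bears on every difference given here.

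As a group, the cell cycle genes read higher in circPan3-/- cells, mitosis genes more so than replication genes. As deposited, 49 of 51 were higher in circPan3-/- cells, against 78.3% of all named genes, and the exceptions were Ccne2 and Fen1. At least 2-fold higher before centring were 16 of 51, against 9.71% of named genes, and 0 were at least 2-fold lower, against 2.77%. After centring, 41 of 51 stayed above 0, against 50% of named genes by construction. At least 2-fold higher after centring were 8 of 51 (15.7%), against 3.89% of named genes, and 0 were at least 2-fold lower, against 4.98%. At 1.5-fold, 17 were higher and 1 was lower, against 11.6% and 12% of named genes. The median centred difference was 0.40 over the 51 genes, 0.57 over the mitosis genes, 0.26 over the replication genes and 0.33 over the inhibitors. More dividing cells and more RNA of these genes per cell cannot be told apart in such bulk samples. The samples also differed in their cell markers. Lgr5, the gene behind the sort, had 7.02 in circPan3-/- cells, against 10.91 in circPan3+/+ cells. Of 11 myeloid markers, 1 exceeded its control limit in circPan3-/- cells, against 11 of 11 in circPan3+/+ cells. Among the 14205 named genes, 3201 did so in circPan3-/- cells and 3408 in circPan3+/+ cells. The other marker lists are given at the end.

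The 8 genes at least 2-fold higher were Ccnb2, Mki67, Top2a, Ccna2 and Cenpf of mitosis, E2f8 and Prim1 of replication, and the inhibitor gene Cdkn1b. The first 4 of these were above the control limit on both arrays. E2f8 was above it in circPan3-/- cells alone, so that its fold as deposited is at least 1.73-fold. After centring, its difference is at least 0.44 (1.17 as measured), a bound that does not reach 2-fold. Cenpf, Prim1 and Cdkn1b were under the limit on both arrays, and no fold is given for them. Among all 2617 named genes above both limits, 5.27% reached 2-fold upwards and 2.64% downwards, against 4 and 0 of the 19 cell cycle genes. All 19 had a centred difference above 0, as did 67.9% of those 2617 genes. With the shift taken over those 2617 genes instead, 3 of the 19 reached 2-fold, and Ccna2 fell just short.

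**Figure D2:**
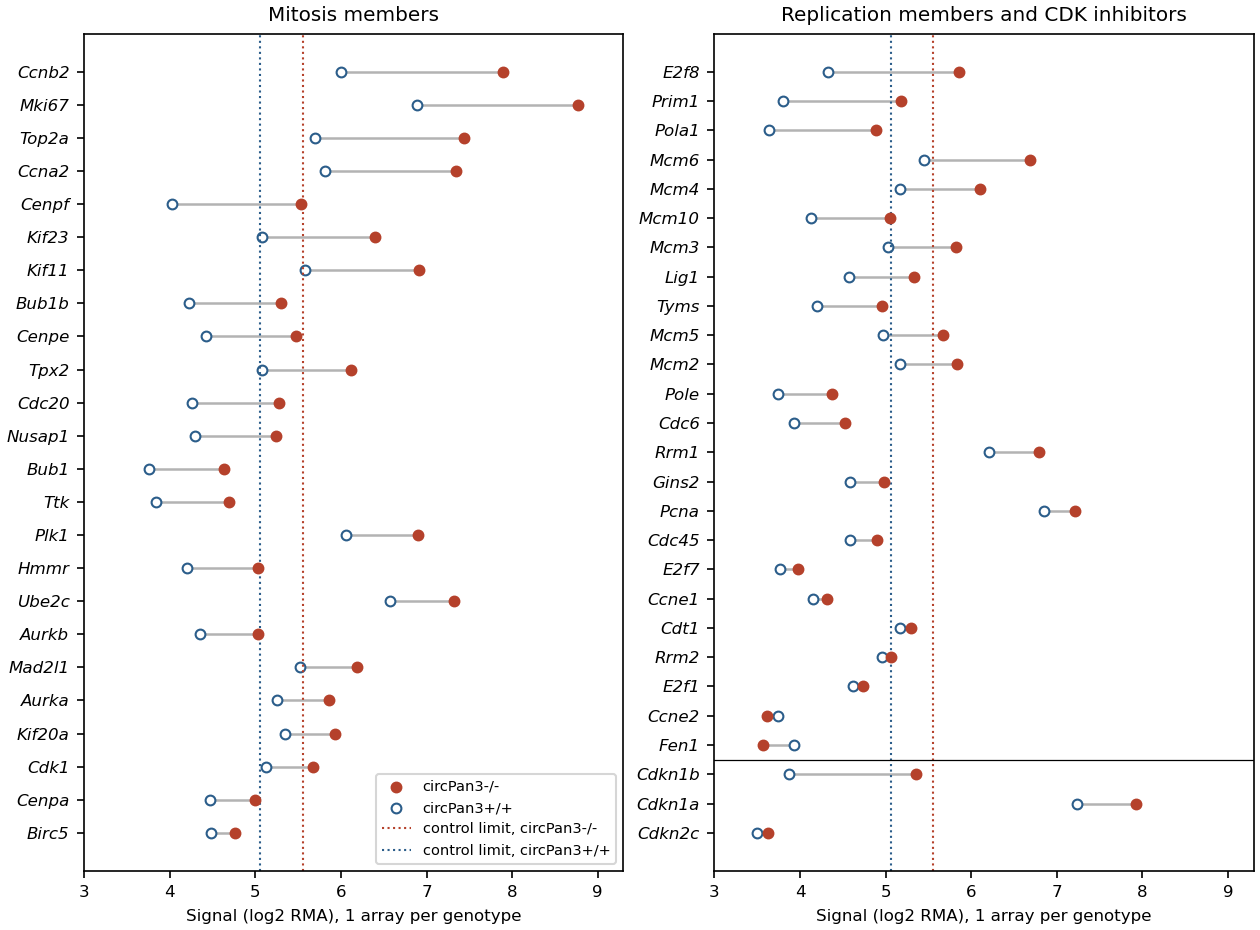
Signal (log2 RMA) of each gene in circPan3-/- cells (filled) and circPan3+/+ cells (open), 1 array each, sorted by difference within mitosis genes (left) and within replication genes and inhibitors (right, split by the line). Dotted lines mark the control limits of 5.56 (circPan3-/-) and 5.06 (circPan3+/+), and the filled point lies right of the open one in all genes but Ccne2 and Fen1.

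Ccnb2, which encodes a B-type cyclin that activates Cdk1 for entry into mitosis, differed most, with a signal of 7.89 in circPan3-/- cells, against 5.997 in circPan3+/+ cells. Its centred difference was 1.54, or 2.92-fold. Mki67, whose product coats mitotic chromosomes and is the standard marker of cycling cells, had 8.77 in circPan3-/- cells, against 6.89 in circPan3+/+ cells, a centred difference of 1.52 or 2.87-fold. Both genes lay above the limit on both arrays, beyond the central bulk of named genes, at percentiles 98.9 (both) of centred differences.

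Top2a, the topoisomerase that untangles sister chromatids, had a signal of 7.44 in circPan3-/- cells, against 5.70 in circPan3+/+ cells, a centred difference of 1.39 or 2.62-fold. Ccna2, the cyclin of S and G2 phase, had 7.34 in circPan3-/- cells, against 5.81 in circPan3+/+ cells, a centred difference of 1.18 or 2.26-fold. The kinase genes of mitosis all had smaller centred differences than these 4 genes.

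Their partner Cdk1 had a signal of 5.67 in circPan3-/- cells, against 5.13 in circPan3+/+ cells, which after centring is a difference of only 0.19. The Polo kinase gene Plk1 had 6.90 in circPan3-/- cells, against 6.06 in circPan3+/+ cells, a centred difference of 0.48. The Aurora kinase gene Aurka, which acts at spindle poles, had 5.86 in circPan3-/- cells, against 5.26 in circPan3+/+ cells, a centred difference of 0.25. Aurkb and Birc5 encode subunits of the chromosomal passenger complex and lay under the limits on both arrays, with centred differences of 0.33 and -0.08. Birc5 was the only mitosis gene below 0 after centring.

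The spindle motors and binders all lay above 0, from 0.22 for Kif20a to 0.98 for Kif23, with 0 of 6 at 2-fold. Kif11, the motor that pushes the spindle poles apart, had a signal of 6.91 in circPan3-/- cells, against 5.59 in circPan3+/+ cells, a centred difference of 0.97 or 1.96-fold. Kif23, a motor of the central spindle needed for cytokinesis, had 6.40 in circPan3-/- cells, against 5.07 in circPan3+/+ cells, a centred difference of 0.98. Tpx2, which activates Aurka on the spindle, had 6.12 in circPan3-/- cells, against 5.08 in circPan3+/+ cells, a centred difference of 0.69. Kif11 and Kif23 were thus just under the 2-fold line. Nusap1 and Hmmr, which bind spindle microtubules, were under the limits on both arrays, with centred differences of 0.60 and 0.47.

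Genes of the spindle checkpoint and the kinetochore were mostly dim, with 6 of 7 under the limits on both arrays, and all 7 had centred differences above 0. Cenpf, a large kinetochore protein, had a signal of 5.53 in circPan3-/- cells, against 4.03 in circPan3+/+ cells, a centred difference of 1.15. Bub1b, Cenpe, Bub1 and Ttk ran from 0.50 (Ttk) to 0.73 (Bub1b), and Cenpa, the centromeric histone, stood at 0.17. Mad2l1, the checkpoint protein that inhibits Cdc20, was the one above the limits, with 6.18 in circPan3-/- cells, against 5.52 in circPan3+/+ cells and a centred difference of 0.31. Of the genes that drive exit from mitosis, Ube2c, the ubiquitin-conjugating enzyme of the anaphase-promoting complex, had 7.32 in circPan3-/- cells, against 6.57 in circPan3+/+ cells, a centred difference of 0.39. Its activator gene Cdc20 stood at 0.66, between values under the limits.

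Among the replication genes, the MCM helicase subunits were uniformly above the shift of named genes but under 2-fold. Mcm6 had a signal of 6.69 in circPan3-/- cells, against 5.44 in circPan3+/+ cells, a centred difference of 0.89 or 1.85-fold. Mcm4 had 6.11 in circPan3-/- cells, against 5.17 in circPan3+/+ cells and Mcm2 had 5.83 in circPan3-/- cells, against 5.17 in circPan3+/+ cells, with centred differences of 0.58 and 0.31. Mcm3 and Mcm5 were above the limit in circPan3-/- cells alone, with centred differences of at least 0.41 and 0.26 (0.45 and 0.35 as measured).

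The genes that load and fire this helicase had a median centred difference of 0.04 as measured. With 0 of 5 above the limits on both arrays, they cannot be ranked against the MCM genes. Cdt1, which brings the MCM ring to origins, had a signal of 5.30 in circPan3-/- cells, against 5.17 in circPan3+/+ cells, a centred difference of -0.22. Only its circPan3+/+ value is above its limit, so this difference rests on a circPan3-/- value that cannot be told from the negative controls. Cdc45 and Gins2, the partners that make the loaded ring an active helicase, stood at -0.04 and 0.04, Cdc6 at 0.24 and Mcm10 at 0.57. The last 4 were under the limits on both arrays.

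Most genes of the polymerase group were dim. Pola1 and Prim1, the catalytic polymerase and primase subunits of the complex that starts each new strand, had centred differences of 0.91 and 1.02. Fen1, the nuclease that trims the primers of Okazaki fragments, had a signal of 3.57 in circPan3-/- cells, against 3.93 in circPan3+/+ cells and a centred difference of -0.72, and its circPan3+/+ value recurs in 145 other rows. Pole and Lig1, the leading-strand polymerase and the ligase that seals Okazaki fragments, stood at 0.28 and 0.41. These 5 lay under the limits on both arrays. Pcna, the sliding clamp and a widely used S phase marker, was above them, with 7.22 in circPan3-/- cells, against 6.85 in circPan3+/+ cells, and after centring its difference was 0.02.

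The enzymes of nucleotide supply did not reach 2-fold. Rrm1, the large subunit of ribonucleotide reductase, had a signal of 6.79 in circPan3-/- cells, against 6.21 in circPan3+/+ cells, a centred difference of 0.23. Its partner Rrm2, the subunit whose level varies through the cycle, had 5.07 in circPan3-/- cells, against 4.95 in circPan3+/+ cells, a centred difference of -0.24. Tyms, which makes thymidylate, stood at 0.40, and both Rrm2 and Tyms lay under the limits.

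As measured, the regulators of the G1/S transition were at or below the shift of named genes, except E2f8. Ccne1 and Ccne2, the E-type cyclins that activate Cdk2, had centred differences of -0.19 and -0.49, and the activating factor gene E2f1 had -0.25. Of the atypical E2F repressors, E2f7 stood at -0.14, while E2f8 had a signal of 5.85 in circPan3-/- cells, against 4.33 in circPan3+/+ cells. The circPan3+/+ value is under its limit, so the centred difference of E2f8 is at least 0.44 (1.17 as measured). In this group 4 of 5 genes lay under the limits on both arrays.

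Only Cdkn1a of the inhibitors could be read on both arrays, so whether the inhibitors differed alike cannot be told. Cdkn1a (p21), the p53-inducible inhibitor, was the one above the limits, with a signal of 7.92 in circPan3-/- cells, against 7.23 in circPan3+/+ cells and a centred difference of 0.33 or 1.26-fold. Cdkn1b (p27), which holds cells in G1, had 5.35 in circPan3-/- cells, against 3.87 in circPan3+/+ cells, a centred difference of 1.13 between values under the limits. Cdkn2c (p18), an inhibitor of Cdk4 and Cdk6, had 3.63 in circPan3-/- cells, against 3.49 in circPan3+/+ cells, a centred difference of -0.22, also under the limits.

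**Figure D3:**
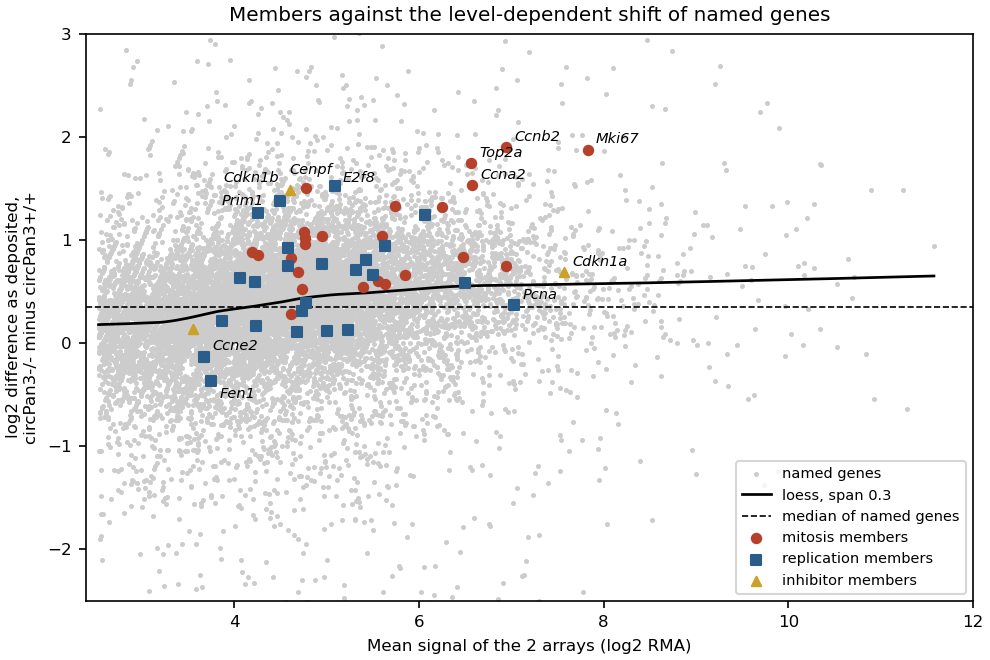
Difference as deposited (log2, circPan3-/- minus circPan3+/+) against the mean signal of both arrays, for the 14205 named genes (grey, those outside the frame not shown) and for the mitosis, replication and inhibitor genes. The loess line shows the level-dependent shift; Ccnb2, Mki67, Top2a and Ccna2 lie well above it, and Pcna lies near the median line.

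The gap between the medians of mitosis and replication genes was 0.31 on the log2 scale. Of the 24 mitosis genes, 19 lay above the replication median, and 6 of the 24 replication genes lay above the mitosis median. Because bright genes carried a larger shift, the gap was also taken after loess on level, where it was 0.32 (0.52 over mitosis and 0.20 over replication genes). Among genes above both limits it was 0.38, with 13 mitosis and 5 replication genes.

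The recurring values of the circPan3+/+ array touched the groups unequally: 17 of 24 replication genes had a circPan3+/+ value found in some other row too, against 6 of 24 mitosis genes, and on the circPan3-/- array 0 of 51 did. Mcm2 and Mcm4 had the same circPan3+/+ signal of 5.17, as did Cdc45 and Gins2 (4.59), Cdc6 and Fen1 (3.93), and Ccne2 and Pole (3.75). Within each pair, the unequal differences come wholly from the circPan3-/- array. With genes of unshared values alone, 18 of mitosis and 7 of replication, the gap was 0.16. The part of the shared values in the gap was not tested.

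Other genes of the same processes were taken from wider lists. Of 72 other mitosis genes past the filter, 2 (2.78%) exceeded the 2-fold line upwards after centring and 0 downwards, against 3.89% and 4.98% of named genes, so these counts show no excess. Of the 72, 58 lay above 0, with a median of 0.40. Lmnb1, which encodes lamin B1 of the nuclear envelope, had a signal of 6.52 in circPan3-/- cells, against 4.95 in circPan3+/+ cells. The circPan3+/+ value is under its limit, so its centred difference is at least 1.10 (1.21 as measured). The mitotic kinesin gene Kif15 followed at 1.07 and the kinase gene Melk at 0.88, both between values under the limits. At the lower end, the kinetochore gene Zwint had 5.003 in circPan3-/- cells, against 5.52 in circPan3+/+ cells, of which only the circPan3+/+ value is above its limit. The histone kinase gene Haspin and the transcription factor gene Mybl2 stood at -0.43 and -0.38, under the limits on both arrays.

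Of 52 other replication genes, 2 (3.85%) exceeded it upwards and 0 downwards, near the 3.89% and below the 4.98% of named genes, with 37 above 0 and a median of 0.20. Ticrr, which fires origins, stood at 1.14, Dtl, an adaptor for the destruction of Cdt1, at 1.06 and the deoxycytidylate deaminase gene Dctd at 0.91. The helicase gene Recql4 at -0.38, the origin recognition gene Orc1 at -0.25 and Gins3 at -0.23 stood at the lower end. All 6 were under the limits on both arrays. The order of the medians, mitosis over replication, was thus that of the main groups, but above both limits it was 0.27 over 9 mitosis and 0.33 over 5 replication genes, beside 0.18 over all named genes above both limits.

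Of 21 genes of G1 cyclins, CDKs, pocket proteins and their partners, 2 exceeded 2-fold upwards (9.52%, against 3.89% of named genes) and 0 downwards (against 4.98%), with a median of 0.35. Of these 2, Ccnd2 alone was above the limits. Ccnd2, a D-type cyclin that couples growth signals to Cdk4 and Cdk6, had a signal of 7.75 in circPan3-/- cells, against 6.11 in circPan3+/+ cells, a centred difference of 1.29. The E2F partner gene Tfdp2 stood at 1.22, E2f6 at -0.40 and Ccnd3 at -0.19, all under the limits on both arrays. The phosphatase gene Cdc25a was above the limit in circPan3-/- cells alone, so its centred difference is at least 0.44 (0.93 as measured). E2f4, above both limits, stood at -0.11.

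Other inhibitors and p53 targets had a median of 0.13 over 15 genes, with 0 at 2-fold in either direction, against 3.89% and 4.98% of named genes. The stress gene Gadd45a had 7.30 in circPan3-/- cells, against 6.01 in circPan3+/+ cells and a centred difference of 0.94, and Mdm2, whose product degrades p53, stood at -0.41, both above the limits. Wee1, the kinase that restrains Cdk1, was above the limit in circPan3-/- cells alone, so its centred difference is at least 0.49 (0.78 as measured). Cdkn1c at 0.38, Sesn2 at -0.52 and Cdkn2a at -0.47 were under the limits on both arrays. Subunits of the anaphase-promoting complex and its enzymes had a median of -0.02 over 16 genes, with 0 at 2-fold. Above both limits, Ube2s stood at -0.49, Anapc13 at 0.31 and Anapc1 at 0.35. Anapc10 at -0.48, Anapc11 at -0.44 and Anapc7 at 0.23 had at least 1 value under its limit.

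Histone genes of the replication-dependent clusters, whose messages are made in S phase, were mostly dim. Of 21 past the filter, 1 was at least 2-fold higher (4.76%, against 3.89% of named genes) and 3 lower (against 4.98%). Their median centred difference was -0.12, or -0.0013 after loess, and it was 0.30 over the 4 genes above both limits, of which 3 lay above 0. H1f2, a linker histone gene, was 1 of those 4, at 0.84. H2ac20 and H2bc1 were above the limit in circPan3+/+ cells alone, with measured centred differences of -1.37 and -1.18 but bounds of -0.52 and -0.44. H2bc21 at 1.47, H1f3 at 0.54 and H2ac21 at -1.17 were under the limits on both arrays. These genes are close copies of one another whose signals may be mixed, rows annotated to several of them were left out, and some, such as the testis gene H2bc1, are not tied to S phase.

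**Figure D4:**
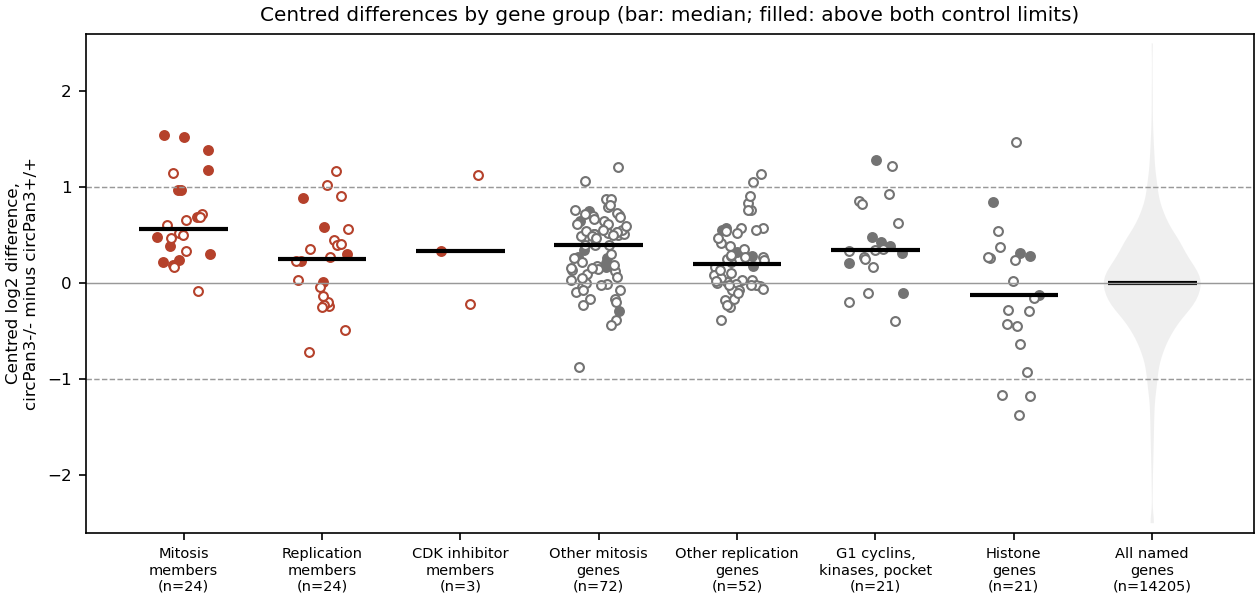
Centred log2 differences (circPan3-/- minus circPan3+/+) of each gene, filled where above the control limit on both arrays and open otherwise, with medians as bars, for the cell cycle genes (red), for related lists (grey) and for all 14205 named genes (violin, values beyond 2.5 drawn at its ends). Dashed lines mark 2-fold; the medians run from 0.57 in mitosis genes to -0.12 in histone genes.

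Markers of the cell types that the sorted samples could hold also differed between the arrays, in both directions. Epithelial markers, of which 10 of 12 were above the limits on both arrays, had a median centred difference of 0.57 over 12 genes, with 3 at least 2-fold higher and 0 lower, and a median of 0.30 over those 10 and of 0.31 after loess over all 12. The 14 stem cell markers had a median of 1.00, with 12 above 0. Of them, 7 reached 2-fold upwards and 2 downwards, namely Olfm4 at -1.60 and Lgr5 at -4.24. Among the 4 above the limits on both arrays, 2 reached 2-fold upwards and 2 downwards, against 5.27% and 2.64% of named genes above both limits. Paneth and goblet markers had medians of 2.06 over 6 genes and 1.88 over 8, with 6 of each list above the limits on both arrays. Of 8 enteroendocrine markers, 2 were above the limits on both arrays, with a median of 0.88, and 0 of 7 tuft markers were above a limit on either array. Enterocyte markers, of cells that no longer divide, had a median of -1.60 over 9 genes, with 5 at least 2-fold lower and 0 higher.

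The lists for immune and stromal cells had medians under the shift, in part from values below the limits. The myeloid markers, which include the pan-leukocyte gene Ptprc, had a median centred difference of -2.16 over 11 genes. In circPan3-/- cells 10 of them could not be told from the negative controls, so that 3 were at least 2-fold lower when counted down to the limit, against 9 as measured. Counted down to the limit, 140 of the 14205 named genes were at least 2-fold lower. The signals of the 11 myeloid markers ran from 1.92 to 10.51 in circPan3-/- cells, against 5.67 to 10.55 in circPan3+/+ cells. T and NK cell markers had a median of -0.93 over 8 genes, 1 above the limit in circPan3-/- cells, against 2 in circPan3+/+ cells, and B and plasma cell markers had -0.56 over 5, with 1 against 3 above it. Endothelial markers had -1.21 over 5 genes, with 1 above the limit in circPan3-/- cells, against 4 in circPan3+/+ cells. Mesenchymal markers had -0.71 over 9 genes, with 3 above the limit on each array. Of the 9, 2 were at least 2-fold higher and 3 lower, against 3.89% and 4.98% of named genes. The immediate early genes, which react within minutes to handling of the tissue, had a median of 1.90 over 7 genes. All 7 were at least 2-fold higher, against 3.89% of named genes. The part of these shifts in the differences of the cell cycle genes was not tested. Pan3, the host gene of the circle, had 5.64 in circPan3-/- cells, against 4.84 in circPan3+/+ cells. The circPan3+/+ value is under its limit of 5.06 and recurs in other rows, so the size of this difference cannot be read. The single row of Pan3 is annotated to the gene and not to the circle, so the deletion was not checked.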

How the data were processed

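Total RNA of 2 samples was measured, 1 array per genotype. Per the submitters' processing notes in the labels, the deposited values were made by the authors with Affymetrix Power Tools and RMA; no version or build is stated in those notes. The deposited log2 base was inferred from the range of the values, -0.18 to 13.07, because the table states no unit. The number of arrays, 1 per genotype, limits the precision.

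Rows were named from the platform annotation, updated through Entrez identifiers and synonyms to RefSeq symbols. Of 72688 rows, 31258 had 1 gene, 1492 several and 39938 none listed. The brightest row represented a protein-coding gene. Differences were centred on their median over named genes with a mean no lower than the median row, and a 2-fold centred difference was counted. No test was possible, so the differences carry no p-values. Named genes were all 53 listed genes, the 3 highest and 3 lowest of each pathway list, Pan3 and Lgr5; markers were also summarised, with Olfm4 named after its value was seen. The 53 genes and all lists were chosen with earlier results of these data known. Centring was tested on simulated data, and the bounds at the limits on made-up rows. The control limits themselves were not tested in this way. Python 3.11.15, pandas 2.3.3, statsmodels 0.14.6 and matplotlib 3.10.9 were used. Alternatives were no centring, the median of all rows, loess (span 0.3), quantile normalization, other filters, the mean of rows, unshared values only, 1.5-fold, and bounds at the control limits.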

Additional observations from a re-analysis of the deposited data

How the results depend on the processing

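The count of 8 genes at least 2-fold higher, against 3.89% of named genes, became 16 with no shift removed, against 9.71%. At 1.5-fold, 17 were higher and 1 was lower, against 11.6% and 12%. The count at 2-fold was 3 of 19 with only genes above the control limit on both arrays, which also set the shift. It was 4 of 26 with only unshared values, and 4 with bounds for dim values, against 196 of the 14205 named genes. It ran from 6 (loess) to 12 (shift of all rows) elsewhere. No share of named genes was taken for the settings given without one. Ccnb2, Mki67 and Top2a were at least 2-fold higher in each of the 10 settings of shift, filter, row and shared values at 2-fold, the reported one included. With no shift removed, the medians were 0.92 over mitosis, 0.61 over replication and 0.69 over inhibitor genes. The inhibitor median was 0.12 after loess and 0.64 over the 2 left by the upper quartile filter. The gap between the mitosis and replication medians was 0.31 as reported. It could not change with no shift removed, the shift of all rows, no filter or the mean of rows. These settings keep all 51 genes and their rows and shift every gene alike. In the other settings the gap stayed above 0, from 0.16 (unshared values) to 0.38 (above both limits). No paired analysis was possible because there was 1 array per genotype, and leaving out a replicate was not possible for the same reason. Most of the dim replication genes lie within the range of the negative controls, which limits what their differences show. Medians and differences of single genes were counted as moved past 0.2 and counts past 1.5 times. By this rule, the differences of 8 of the 51 genes moved after loess, Ccnb2, Mki67, Top2a and Ccna2 among them. With no shift removed, those of all 51 did.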
